A study of Rattus norvegicus with 12 samples.

Results

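The genes described here encode the proteins that fuse mitochondria, divide them and mark damaged ones for removal. They were chosen by symbol, with earlier results of these data known. They include the mitochondrial fusion genes Mfn1, Mfn2 and Opa1 and the fission genes Dnm1l, Fis1 and Mff. Pink1, Bnip3l and Fundc2 are grouped here under mitophagy, Fundc2 as a relative of the receptor gene Fundc1. All 9 matched a row among the 32623 genes of the table, and 8 had enough reads to be tested. Mfn2 had a row but nearly no reads and was not tested.

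Heart RNA was sequenced from 4 male rats in each of 3 groups, all Sprague Dawley. The labels give a weight of 130 to 150 g and an age of 5 weeks. The schedules run to 8 weeks of normoxia in the controls (CTRL), so this is not the age at which hearts were taken. SU_HX rats received SU-5416 (Sugen, a VEGF receptor inhibitor) under the skin at 20 mg/kg with 3 weeks in 10% oxygen and 2 weeks in normoxia, and then vehicle for 3 weeks in normoxia. Chrysin rats went through the same SU-5416 and hypoxia schedule and were then given the plant flavonoid chrysin at 100 mg/kg per day for 3 weeks. CTRL rats had 8 weeks of normoxia and no SU-5416, so SU_HX and CTRL differ by drug and oxygen together, and no group received chrysin alone. SU-5416 with hypoxia is a rat model of pulmonary arterial hypertension in which the right ventricle is loaded, but the labels name only heart and no ventricle.

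Mitochondria form a network that is remodelled by large GTPases. Mitofusins join the outer membranes and OPA1 joins the inner membranes, while DRP1, the product of Dnm1l, is recruited to the surface by adaptors such as MFF and constricts the organelle. In mitophagy the kinase PINK1 builds up on depolarised mitochondria and marks them for removal, while receptors anchored in the outer membrane, among them BNIP3L, bind the autophagosome directly. Cardiomyocytes are packed with mitochondria, and their contraction depends on the energy these supply.

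Total counts ran from 3997306 to 6009798 per library, and expression is given as CPM, the counts of a gene set against a library total scaled by the TMM method. All libraries expressed cardiomyocyte genes, and 7 of 8 cardiomyocyte markers had a row (Ttn had none). Intron reads made up 63.4% of the gene reads of SU_HX rat 1, a library that stood apart, while the remaining 11 ranged from 42.6% to 49.999%. Chrysin rat 3 was the highest of its group in 7 of the 8 tested genes. The 8 genes were also tested without both libraries. Chrysin rat 3 was picked by the values of these same genes, so fits without it describe them and give no separate support.

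In normoxic hearts Pink1 was the most strongly expressed of the genes per unit of exon length. Its level was 422 ± 26.0 CPM per kb (SD, n = 4), and no CTRL value of another member overlapped it. Opa1 followed at 82.1 ± 4.88 CPM per kb and Mfn1 at 77.8 ± 2.43 CPM per kb, and their ranges over the CTRL rats overlapped. Mff stood at 64.7 ± 6.26, Dnm1l at 48.8 ± 3.10, Fis1 at 43.1 ± 3.32, Fundc2 at 37.0 ± 4.28 and Bnip3l at 22.2 ± 1.61 CPM per kb. The neighbours Dnm1l and Fis1, and Fis1 and Fundc2, overlapped between rats; the other neighbours in this order did not. In SU_HX hearts Pink1 still led, at 106 ± 64.2 CPM per kb, but its lowest rat, at 46.9, lay within the Opa1 range of 24.4 to 74.5 CPM per kb. The Mff level is uncertain, since only 65.8% of the reads on its exons were unique to it and its deposited count includes some of the others.

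The comparison of SU_HX with CTRL asks how these genes differ in the diseased heart. Pink1, Mfn1, Mff and Fundc2 fell, none of the 8 rose, and Opa1, Dnm1l, Fis1 and Bnip3l did not pass the test (edgeR's quasi-likelihood test, Benjamini-Hochberg adjustment over all 12304 genes tested, threshold 0.05). Thus 4 of 8 fell, where 14.7% of all tested genes fell and 16% rose, 30.7% in either direction. The median log2 change of the 8 genes was -0.73 and that of all tested genes 0.07. Mfn1, Opa1, Mff, Pink1 and Fundc2 had every SU_HX rat below every CTRL rat, 5 of 8 against 16.8% of all tested genes. The genes were chosen with earlier results of these data known, so such shares describe them and do not test the set. In bulk heart RNA, fewer cells of a type and less RNA per cell cannot be told apart. The authors' deposited table gives adjusted p-values under 0.05 in this comparison to the same 4 genes, with 2.21e-05 for Pink1, 0.000485 for Fundc2, 0.00559 for Mfn1 and 0.0136 for Mff.

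**Figure D1:**
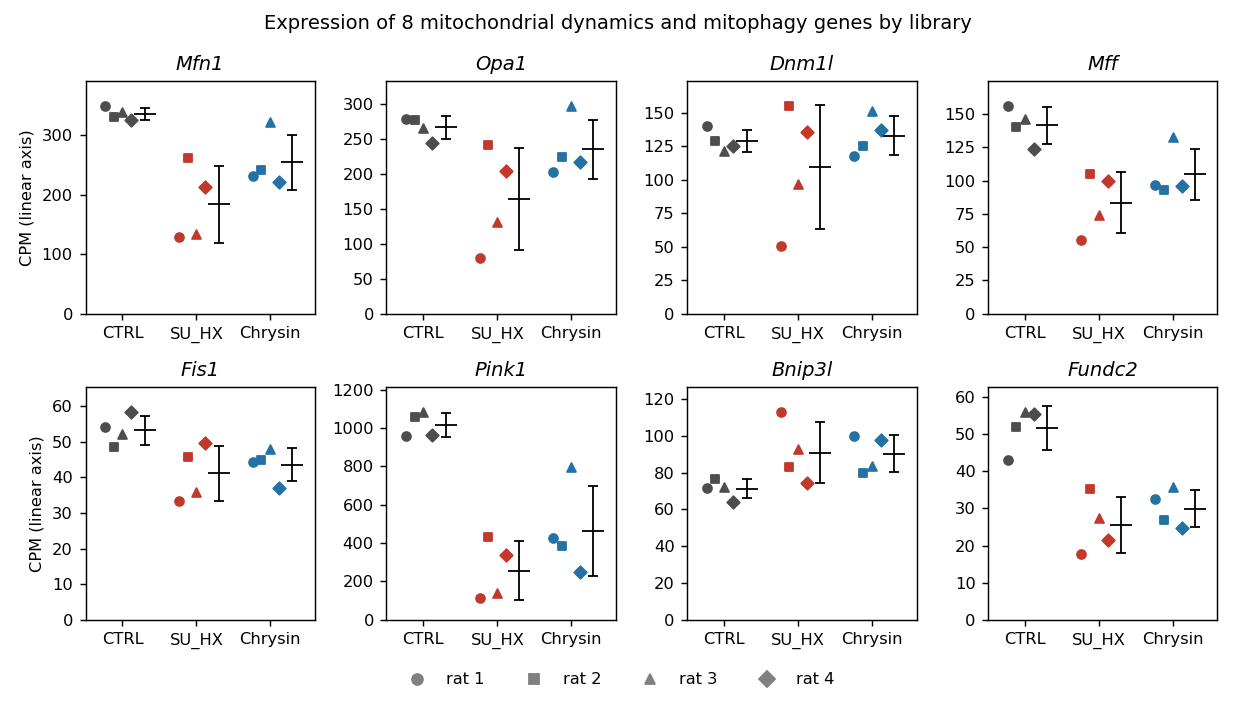
CPM of the 8 tested genes (vertical axes, linear and starting at 0) in each library, by group; symbols mark the rat number, which does not pair rats across groups, and bars show the group mean ± SD (n = 4). Pink1 lies between 961 and 1084 CPM in CTRL and at 430.5 CPM or less in SU_HX, while Chrysin rat 3 reaches 797 CPM.

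Pink1 (ENSRNOG00000015385), the kinase that starts ubiquitin-dependent mitophagy, changed most among the 8 genes. It lies on chromosome 5 from 156677146 to 156689415 with 11 exons, in the table's coordinates, whose build is not given in the sources used here. Its CPM was 961, 1059, 1084 and 967 in CTRL rats 1 to 4, 113, 430.5, 139 and 341 in SU_HX rats 1 to 4, and 425, 388, 797 and 250.1 in Chrysin rats 1 to 4. All SU_HX and all Chrysin rats were below all CTRL rats, and SU_HX and Chrysin overlapped. In SU_HX it fell by 1.99 on the log2 scale (SE 0.43, adjusted p = 0.0052), a 3.98-fold lower level. The fall passed under every alternative computed, with log2 changes from -2.37 to -1.75.

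The upstream sequences of Pink1, of Opa1 and of Mfn1 are shown because they could carry sites for factors that set the expression of nuclear genes for mitochondria. Each is the 250 bases before the RefSeq transcript start in build GRCr8, read 5′ to 3′ on the gene's strand, with capitals for matches to the letters searched. The regions are chr5:155825951-155826200 on the minus strand for Pink1, chr11:84689901-84690150 on the minus strand for Opa1 and chr2:117241508-117241757 on the plus strand for Mfn1.
Pink1: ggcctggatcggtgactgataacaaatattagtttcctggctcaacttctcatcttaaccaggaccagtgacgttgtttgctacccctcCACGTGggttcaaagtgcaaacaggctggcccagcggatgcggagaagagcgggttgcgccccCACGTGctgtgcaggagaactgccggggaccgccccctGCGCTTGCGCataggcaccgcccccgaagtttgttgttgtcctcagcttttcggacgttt
Opa1: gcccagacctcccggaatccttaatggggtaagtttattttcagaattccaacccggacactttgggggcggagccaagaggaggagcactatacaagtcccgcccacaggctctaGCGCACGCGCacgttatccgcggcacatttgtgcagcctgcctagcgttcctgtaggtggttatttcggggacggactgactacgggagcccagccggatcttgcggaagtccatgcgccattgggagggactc
Mfn1: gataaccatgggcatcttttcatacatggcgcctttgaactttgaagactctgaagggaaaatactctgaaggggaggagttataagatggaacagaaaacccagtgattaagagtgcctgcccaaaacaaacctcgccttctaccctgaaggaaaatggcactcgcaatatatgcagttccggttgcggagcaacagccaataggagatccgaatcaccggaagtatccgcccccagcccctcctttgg
Both strands were searched for 4 sets of letters, chosen with the expression results known: CACGTG (E-box), the NRF1 motif (GCGC on either side of 2 free bases), TNAAGGTCA (estrogen-related receptors) and TGACGTCA (CRE). Sequences were in the RefSeq table for 7 of the 9 genes (not for Mfn2 or Bnip3l). Pink1 held CACGTG at 2 places, a sequence found in 5.79% of 27457 promoters of that length and in none of the other 6 searched here. The NRF1 motif was found in Pink1, as GCGCTTGCGC, and in Opa1, as GCGCACGCGC, and in 5.3% of all promoters. The letters TNAAGGTCA (1.0% of all promoters) and TGACGTCA (1.7%) were in none of the 7. These are matches of letters and no measure of binding.

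Mfn1 (ENSRNOG00000011057; chromosome 2, 118929738 to 118973698, 20 exons) encodes the outer-membrane fusion GTPase mitofusin 1. Its CPM was 349, 329.8, 339 and 326 in CTRL, 128, 261, 134 and 214 in SU_HX, and 232, 242, 322 and 221 in Chrysin, in rat order. Every SU_HX rat was below every CTRL rat, with rats 1 and 3 at the bottom of the group. It fell by 0.87 on the log2 scale (SE 0.23, adjusted p = 0.0129), 1.82-fold. Without SU_HX rat 3 the change was -0.73 with an adjusted p of 0.0504, just outside the threshold.

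Opa1 (ENSRNOG00000001717; chromosome 11, 74720254 to 74793803, 32 exons) encodes the inner-membrane fusion GTPase that also holds the cristae together. Its CPM was 278, 277, 266 and 244 in CTRL, 79.1, 242, 132 and 204 in SU_HX, and 203, 224, 297 and 216 in Chrysin. SU_HX rat 2 lay just under the lowest CTRL rat and rat 1 at less than any other library. The log2 change in SU_HX was -0.70 (SE 0.28, adjusted p = 0.0709) and did not pass. It passed in limma-voom (adjusted p = 0.0460) and without SU_HX rat 2 (log2 change -0.95, adjusted p = 0.0147).

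Mfn2 (ENSRNOG00000046447), the second mitofusin, is a gene that heart muscle uses, yet its row was listed at 0 in all CTRL and Chrysin libraries. Its 9 counts all came from SU_HX rat 1, no exon read was unique to it in any library, and 24 exon reads in all touched its exons. Other genes that every cell uses were also listed at 0 or near it, with Cycs (cytochrome c) at 0 throughout and Yme1l1 (an inner-membrane protease that cleaves OPA1) at 1.77 CPM in CTRL. No level or fold change of Mfn2 is therefore given.

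Among the fission genes, Mff (ENSRNOG00000015428; chromosome 9, 90880614 to 90908852, 14 exons) encodes the outer-membrane adaptor that recruits DRP1. Its CPM was 156, 140.2, 146 and 123 in CTRL, 55.4, 105, 74.1 and 99.6 in SU_HX, and 96.8, 93.0, 133 and 95.7 in Chrysin. All SU_HX rats were below all CTRL rats, and Chrysin rat 3 alone of its group reached the CTRL range. Mff fell by 0.76 on the log2 scale (SE 0.20, adjusted p = 0.0123), and it passed under every alternative, including the one built on reads unique to the gene.

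Dnm1l (ENSRNOG00000001813; chromosome 11, 88830957 to 88880198, 25 exons) encodes the fission GTPase DRP1. Its CPM was 122 to 140.4 in CTRL and 118 to 151 in Chrysin, while SU_HX rats 1 to 4 were at 50.3, 155, 97.0 and 136. SU_HX rat 2 was thus the highest of all libraries and rat 1 the lowest. The log2 change was -0.23 (SE 0.26, adjusted p = 0.515), and without SU_HX rat 1 it was 0.01. Fis1 (ENSRNOG00000001420; chromosome 12, 22750485 to 22765308, 9 exons), a tail-anchored outer-membrane protein with parts in fission and mitophagy, ranged from 48.5 to 58.4 CPM in CTRL, 33.4 to 49.7 in SU_HX and 37.0 to 48.0 in Chrysin. Its log2 change in SU_HX was -0.37 (SE 0.15, adjusted p = 0.0708), and of the alternatives computed it passed only when SU_HX rat 2 or rat 4 was left out (adjusted p = 0.0483 and 0.0369).

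Of the genes for outer-membrane proteins grouped here under mitophagy, Fundc2 fell and Bnip3l did not pass. Fundc2 (ENSRNOG00000024066; chromosome 18, 402295 to 407954, 5 exons), a relative of the hypoxia-responsive mitophagy receptor FUNDC1, had a CPM of 43.1, 52.0, 56.0 and 55.6 in CTRL, 17.9, 35.3, 27.4 and 21.5 in SU_HX, and 32.7, 26.9, 35.7 and 24.6 in Chrysin. All SU_HX and all Chrysin rats were below all CTRL rats. It fell by 1.01 on the log2 scale in SU_HX (SE 0.20, adjusted p = 0.0035), 2.02-fold, and passed under every alternative.

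Bnip3l (ENSRNOG00000009820; chromosome 15, 43643897 to 43667029, 6 exons), also called Nix, encodes a receptor known from the clearing of mitochondria in maturing red cells. Its CPM was 71.5, 76.5, 72.5 and 64.1 in CTRL, 113, 83.1, 93.0 and 74.2 in SU_HX, and 99.8, 80.0, 83.4 and 98.1 in Chrysin. It was the only one of the 8 genes with a higher mean in SU_HX, and SU_HX rat 4 lay within the CTRL range. The log2 change was 0.35 (SE 0.15, adjusted p = 0.0825), and of the alternatives computed it passed only without SU_HX rat 4 (0.43, adjusted p = 0.0473). Markers of red cells were higher too: 4 of 4 tested erythroid markers rose in SU_HX, where 16% of all tested genes rose. Their summed level was 60.3 to 408 CPM in CTRL, 1031 to 1948 in SU_HX and 399 to 2853 in Chrysin. It was 1948, 1440, 1031 and 1250 CPM in SU_HX rats 1 to 4. Rat 1 was thus highest in both, but rat 3 was lowest in this sum and above rats 2 and 4 in Bnip3l. Macrophage markers (6 of 6) and fibroblast markers (5 of 7) rose as well. The part of any of these cells in the Bnip3l value was not tested.

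**Figure D2:**
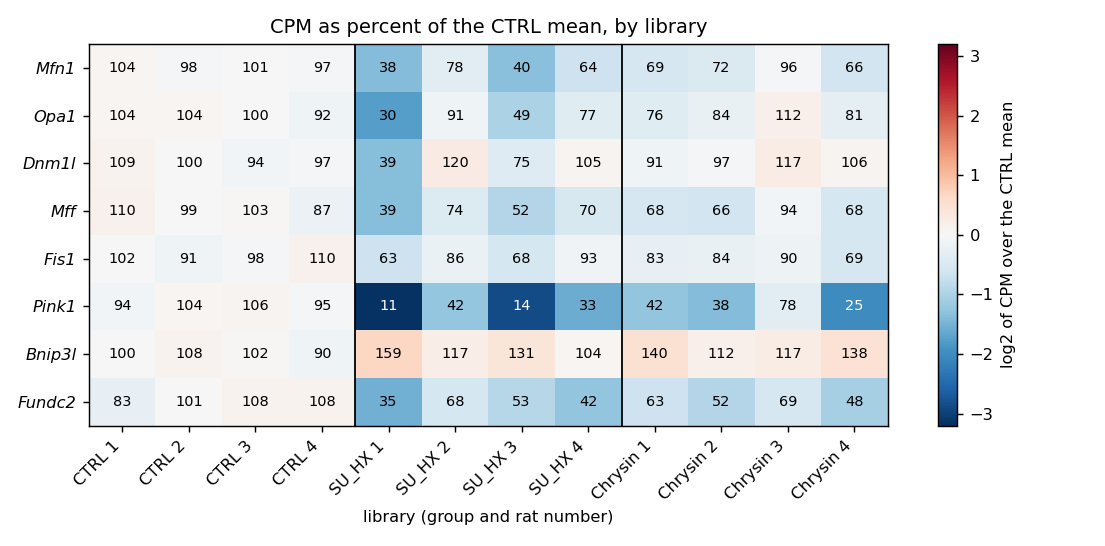
CPM of each gene (rows) in each library (columns) as a percent of the CTRL mean of that gene; colour gives the log2 of that ratio, from blue (lower) to red (higher). Pink1 is at 11 and 14 percent in SU_HX rats 1 and 3, Bnip3l is above 100 percent in all SU_HX and Chrysin libraries, and Chrysin rat 3 is the palest library of its group for Pink1, Mfn1 and Mff.

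The rats differed more from each other in SU_HX than in CTRL. The coefficient of variation of CPM over 4 rats was 3.12% to 11.6% across the 8 genes in CTRL, 18.3% to 60.5% in SU_HX and 10.7% to 50.3% in Chrysin. Over all genes with a mean of at least 10 CPM, its median was 9.52% in CTRL, 24.6% in SU_HX and 15.1% in Chrysin. SU_HX rat 1 was the lowest of its group in 7 of the 8 genes, with Bnip3l the exception, and SU_HX rat 2 was the highest in 6. The largest ratio of highest to lowest rat within a group was 3.81, for Pink1 in SU_HX.

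Markers of several cell types differed between the same libraries. The summed level of the cardiomyocyte markers was 72619 to 80362 CPM in CTRL, it was 13894, 37262, 16430 and 33361 CPM in SU_HX rats 1 to 4, and 33516, 34941, 72872 and 23472 CPM in Chrysin rats 1 to 4. SU_HX rats 1 and 3, lowest in Pink1 and Mfn1, were thus also lowest in these markers, and Chrysin rat 3 was highest of its group in both. Mff shared these lowest SU_HX rats, but Fundc2 was lower in rat 4 (21.5 CPM) than in rat 3 (27.4 CPM), the reverse of the marker sum. Myh6 (alpha myosin heavy chain) made up much of this sum; the other 6 markers summed to 34273 to 37135 CPM in CTRL, and to 9836, 30361, 15280 and 29431 CPM in SU_HX rats 1 to 4. In SU_HX, 3 of 7 cardiomyocyte markers fell, with Myh6 falling by 3.34 on the log2 scale (adjusted p = 0.0070), while Actc1 and Tnnt2 did not pass (log2 change -0.50 and -0.47). Of the fibroblast markers 5 of 7 rose (summed level 3736 to 5963 CPM in CTRL, 5944 to 22236 in SU_HX, 4460 to 10413 in Chrysin), and 6 of 6 macrophage markers rose (98.8 to 152, 268 to 581 and 148 to 379 CPM). The fibroblast sum was highest in SU_HX rat 3 and lowest in rat 2, with rats 1 and 4 between them, so it was not the reverse of the cardiomyocyte order. Of the endothelial markers 1 of 5 rose (977 to 1094 CPM summed in CTRL and 1102 to 2929 in SU_HX, highest in rat 1), and of the smooth muscle and pericyte markers 2 of 6 (408 to 656 and 567 to 1032 CPM). Of all tested genes 14.7% fell and 16% rose in this comparison, so 1 of 5 is close to that share. Of the T cell and NK cell markers 2 of 5 were tested, and Nkg7 fell by 1.26 on the log2 scale (adjusted p = 0.0157). The sum of that list was low, at 4.29 to 9.14 CPM in CTRL and 3.47 to 13.9 in SU_HX. Lung epithelial markers rose in 4 of 4 tested genes, from at most 3.84 CPM summed in CTRL to 12.7 to 61.9 in SU_HX. Their part in the falls of Pink1, Mfn1, Mff and Fundc2 was not tested.

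With SU_HX rat 1 and Chrysin rat 3 left out of the fit, the same 4 genes passed in SU_HX against CTRL, and the number of genes called over the whole table was 4540, against 3776 with all libraries.

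The likeness of other genes to each member was described by Pearson's r of log2 CPM over the 12 libraries, among the tested genes with a mean of at least 10 CPM. The libraries share 3 groups, so r reflects the group differences as well as the spread within them. Pink1 was most like Txlnb (r = 0.995), Iqsec1 (0.994) and Lsm14b (0.994). Mfn1 was most like Coq10a (0.994), Pptc7 (0.991) and the ryanodine receptor gene Ryr2 (0.991), and Opa1 was most like Mtfr1l (0.993), Gfm1 (0.992) and Prkaa2 (0.990). Mff was most like Pnpla8 (0.991), Mrps15 (0.987) and RGD1302996 (0.987), and Dnm1l was most like Ctps1 (0.981), Atp6v1e1 (0.978) and Ghitm (0.975). Fundc2 was most like Rnf166 (0.968), Rnaseh2a (0.965) and Rap1a (0.958). Fis1 was most like Smyd1 (0.942), Ptpmt1 (0.941) and Cmya5 (0.939), and Bnip3l was most like Micall2 (0.922), Heg1 (0.918) and St6gal1 (0.911). Between members, r was highest for Mfn1 and Pink1 (0.978), lowest in size for Dnm1l and Fundc2 (0.49), and negative between Bnip3l and each of the others (-0.92 with Fis1 to -0.61 with Dnm1l).

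Reads in introns come largely from transcripts not yet spliced and gave a further readout of the same libraries, in 12814 genes tested. Mfn1, Pink1 and Fundc2 fell in SU_HX in intron reads too, and the other 5 did not pass. So 3 of 8 fell, where 11.5% of all genes tested in introns fell, 7.66% rose and 19.2% did either. Intron reads of Pink1 were 44.7, 43.0, 51.7 and 43.2 CPM in CTRL and 8.52, 19.3, 11.4 and 17.1 CPM in SU_HX, with every SU_HX rat below every CTRL rat. They fell by 1.71 on the log2 scale (SE 0.28, adjusted p = 0.0027), and those of Mfn1 fell by 0.79 (SE 0.18, adjusted p = 0.0093), from a mean of 137 ± 12.9 to 79.3 ± 14.9 CPM (SD, n = 4). Fundc2 rested on few intron reads (519 in all libraries together), fell by 0.57 (SE 0.18, adjusted p = 0.0450), and lost the call in 13 of 19 alternatives, with adjusted p between 0.0363 and 0.138 over all of them.

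Opa1 showed a different pattern, with intron reads of 88.1 ± 6.67 CPM in CTRL and 80.1 ± 8.90 CPM in SU_HX (log2 change -0.14, SE 0.12, adjusted p = 0.437). For Mff the intron change was -0.22 (SE 0.16, adjusted p = 0.375), but only 8.89% of reads on its introns were unique to the gene. Dnm1l (-0.15), Fis1 (0.26) and Bnip3l (-0.09) did not pass either, at adjusted p between 0.322 and 0.558. The difference between exon and intron changes was not tested. SU_HX rat 1, the library with the highest intron share, had 0.51 exon reads per intron read at Opa1, against 1.98 to 2.51 in CTRL, and 0.44 at Dnm1l, against 1.30 to 1.54 in CTRL. SU_HX rat 3, with an intron share of 49.97%, was also under the CTRL range, with 1.23 at Opa1 and 1.08 at Dnm1l. The low ratios were not particular to these genes. Mfn1, Mff, Fis1, Pink1 and Fundc2 were also under their CTRL ranges in SU_HX rats 1 and 3, and Bnip3l was not. Pink1 had 6.09 and 9.01 in these rats, against 16.3 to 18.5 in CTRL. SU_HX rats 2 and 4 were above the CTRL range at Dnm1l (2.09 and 1.94) and at Mfn1 (2.51 and 2.17, against 1.77 to 1.97). They were within it at Opa1 and Mff, and rat 4 was under it at Fis1 and Fundc2. The SU_HX rats thus lay on both sides of CTRL. The part of the intron share in these ratios was not tested. Without SU_HX rat 1 and Chrysin rat 3 the intron change was -0.09 for Opa1, -0.06 for Mff and -0.08 for Dnm1l.

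**Figure D3:**
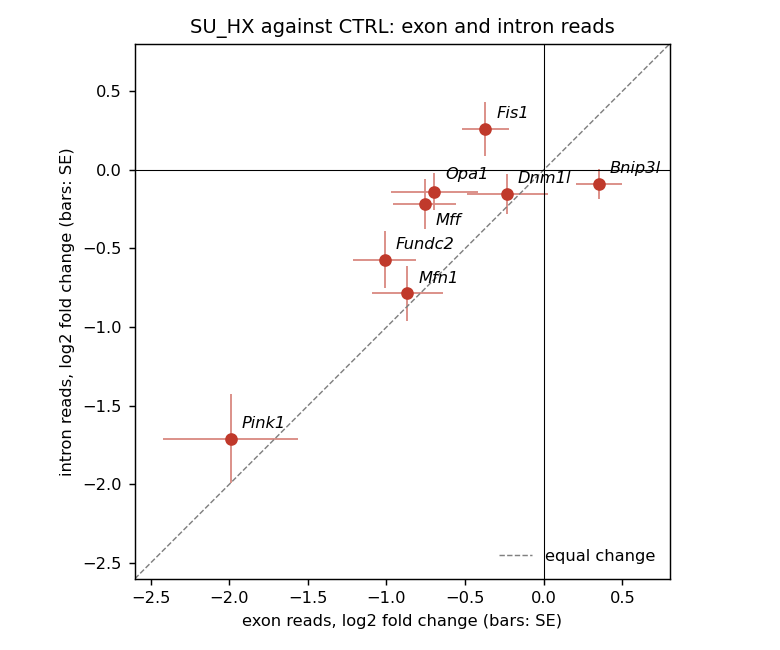
Log2 fold change in SU_HX against CTRL from exon reads (horizontal) and intron reads (vertical) for the 8 genes, with bars for the SE of each; the dashed line marks equal change. Pink1, Mfn1 and Dnm1l lie nearest the line. Fis1, Opa1, Mff and Fundc2 lie above it, with exon changes of -0.37, -0.70, -0.76 and -1.01 and intron changes of 0.26, -0.14, -0.22 and -0.57, and Bnip3l lies below it.

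Reads across exon junctions, which come from spliced RNA, gave levels that followed the exon reads. For Pink1 they were 257 ± 16.0 CPM in CTRL, 63.5 ± 40.8 in SU_HX and 120.3 ± 66.1 in Chrysin (SD, n = 4). For Opa1 they were 132 ± 7.79, 82.3 ± 37.2 and 117 ± 22.1 CPM in the same order, and for Bnip3l 8.39 ± 1.14, 10.4 ± 1.82 and 10.6 ± 1.08 CPM. Junction reads were not tested.

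The comparison of Chrysin with SU_HX asks whether chrysin alters these genes in the model. None of the 8 passed the test, and 0% of the 12304 tested genes did (1002 had an unadjusted p under 0.05; DESeq2 called 2 and limma-voom 0). Pink1 had a log2 difference of 0.86 (SE 0.42, 95% interval -0.04 to 1.76, adjusted p = 0.557), with 3 of 4 Chrysin rats above the SU_HX mean. Mfn1 had 0.46 (interval -0.02 to 0.95) and Opa1 0.52 (interval -0.08 to 1.11), each with all 4 Chrysin rats above the SU_HX mean. The same held for Mff and Dnm1l, while Fundc2 and Fis1 had 3 of 4 above it and Bnip3l 2 of 4 below it. The share of all genes with such counts was not computed. Mff had 0.32, Dnm1l 0.28, Fundc2 0.22 and Fis1 0.08, and Bnip3l had -0.01 (interval -0.32 to 0.31). All 8 overlapped between the groups, as did most tested genes: 1.3% did not overlap in the lower direction and 1% in the higher. Intervals of this width do not show that the groups were alike. Without SU_HX rat 1 and Chrysin rat 3 the differences were 0.22 for Pink1, 0.19 for Mfn1, 0.15 for Opa1, 0.03 for Mff and 0.15 for Bnip3l, and -0.03 for Dnm1l, -0.06 for Fis1 and -0.01 for Fundc2.

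The comparison of Chrysin with CTRL asks which differences from normoxic hearts were present after chrysin; it shares the CTRL libraries with the comparison of SU_HX with CTRL. Fundc2 fell and the other 7 genes did not pass, so 1 of 8 was called lower, where 3.97% of all tested genes were lower, 4.72% higher and 8.69% either. Fundc2 fell by 0.79 on the log2 scale (SE 0.20, adjusted p = 0.0295). It lost the call when any 1 CTRL rat, or Chrysin rat 1, 2 or 4, was left out, at adjusted p from 0.0533 to 0.119.

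Pink1 had a log2 change of -1.13 in Chrysin against CTRL (SE 0.42, adjusted p = 0.108), with all 4 Chrysin rats below the lowest CTRL rat. Groups did not overlap in the lower direction for Mfn1, Fis1, Pink1 and Fundc2, 4 of 8 against 12.8% of all tested genes, and in the higher direction for Bnip3l, against 10.6%. Pink1 passed with only the 2 groups in the fit (adjusted p = 0.0245), without SU_HX rat 1 (0.0488) and without Chrysin rat 3 (log2 change -1.51, adjusted p = 0.0300). Mff (-0.42, adjusted p = 0.0392) and Bnip3l (0.37, 0.0316) also passed with only the 2 groups. That fit called 2599 genes over the whole table, against 1069 with all 12 libraries. In the fit of all 12 libraries, the log2 changes of the genes other than Pink1 and Fundc2 were -0.44 for Mff (adjusted p = 0.179), -0.40 for Mfn1 (0.284), -0.29 for Fis1 (0.224), -0.18 for Opa1 (0.728), 0.04 for Dnm1l (0.943) and 0.34 for Bnip3l (0.153). With SU_HX rat 1 and Chrysin rat 3 both left out, Mff (-0.57, adjusted p = 0.0071), Mfn1 (-0.54, 0.0430), Pink1 (-1.52, 0.0041) and Bnip3l (0.38, 0.0310) passed. Chrysin rat 3 was picked for its high values in these genes, Mff, Mfn1 and Pink1 among them. Leaving it out lowers their Chrysin means, so these calls give no separate support for the falls.

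**Figure D4:**
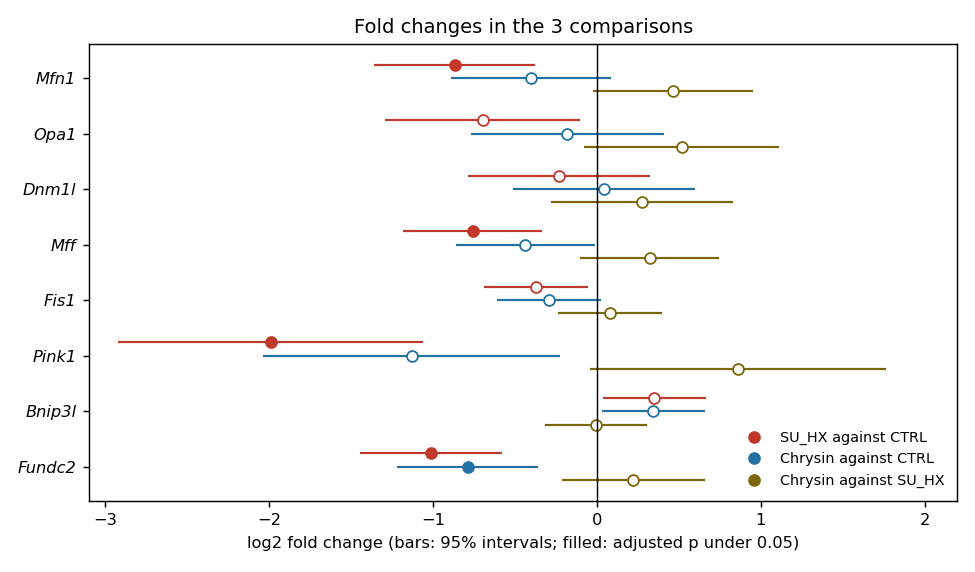
Log2 fold change of the 8 genes in the 3 comparisons; bars are 95% intervals from the SE and each gene's degrees of freedom, and filled points passed the threshold of 0.05 on the adjusted p. Filled points are Mfn1, Mff, Pink1 and Fundc2 for SU_HX against CTRL and Fundc2 for Chrysin against CTRL, and all points for Chrysin against SU_HX are open.

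Other genes of the same pathways were taken from lists that were drawn up with earlier results of these data known. Among the other fission genes, 4 of 11 tested fell in SU_HX against CTRL and 1 rose, where 14.7% of all tested genes fell and 16% rose (median log2 change -0.67, against 0.07 for all genes). Mtfp1, an inner-membrane fission protein, fell by 2.30 on the log2 scale (adjusted p = 0.0043), from 39.0 ± 2.48 to 7.68 ± 6.48 CPM (SD, n = 4). Mul1, an outer-membrane ubiquitin and SUMO ligase, fell by 1.0 (adjusted p = 0.0025), Mief2, a DRP1 receptor, by 1.05 (0.0139), and Slc25a46, an outer-membrane protein that binds the fusion machinery, by 0.67 (0.0226). Spire1, an actin nucleator with a form on mitochondria, rose by 0.98 (adjusted p = 0.0092), from 10.96 ± 2.11 to 21.7 ± 5.42 CPM.

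Among the proteases, scaffolds and partners of fusion, 7 of 13 tested fell and none rose (median -0.77), where 14.7% of all tested genes fell. Phb and Immt, among the 7, lost the call in 11 and 5 of 20 alternatives. Slc25a38, a glycine carrier for heme synthesis and not itself a fusion protein, fell by 0.98 (adjusted p = 0.0023), and Miga2, mitoguardin 2, by 0.77 (0.0027). Samm50, which sorts outer-membrane proteins and anchors the cristae complex, fell by 1.28 (0.0059), and Chchd3, a subunit of that complex, by 1.07 (0.0080). The mitochondrial content and import list had 7 of 12 lower, against the same 14.7%, and none higher (median -0.76), with Hspe1, the small chaperonin (-0.86, adjusted p = 0.0140), the outer-membrane channels Vdac3 (-1.10, 0.0191) and Vdac2 (-0.86, 0.0247), and citrate synthase, Cs (-0.93, 0.0232). Of the other calls in this list, Hspa9, Timm44 and Tfam lost the call in 14, 13 and 11 of 20 alternatives. These mitochondrial genes fell beside Pink1, Mfn1 and Mff in the same libraries, and a separate change of dynamics genes relative to mitochondrial content was not tested.

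Of 15 mitophagy receptors and PINK1 pathway genes, 2 fell and none rose (median -0.29), a share close to the 14.7% of all tested genes that fell. Fundc1, the receptor related to Fundc2, fell by 0.92 (adjusted p = 0.0043), from 29.3 ± 4.05 to 15.5 ± 1.73 CPM, and Rhot2, a GTPase that ties mitochondria to motors, fell by 0.58 (0.0154). The deubiquitinases Usp15 (-0.35, adjusted p = 0.0600) and Usp30 (-0.34, 0.0898) did not pass. Bnip3, the relative of Bnip3l, which was picked out after its values were seen, had a log2 change of -0.02 (adjusted p = 0.963).

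Of 10 autophagy adaptors and ATG8 genes, 2 rose and 1 fell (median -0.03), a share close to the 30.7% of all tested genes called in either direction. Gabarapl1 rose by 0.60 on the log2 scale (adjusted p = 0.0126), Map1lc3a, which encodes an LC3 protein, fell by 1.23 (0.0090), and Tax1bp1 had 0.32 (0.0793). Sqstm1, the adaptor p62, rose by 0.58 (0.0480) but kept that call in only 4 of 20 alternatives (adjusted p from 0.0024 to 0.130). Of 19 core autophagy genes 4 fell and 2 rose (median -0.06), again a share close to 30.7%. Ulk1, the kinase that starts autophagosome formation, fell by 1.41 (adjusted p = 0.0010), from 135 ± 18.9 to 50.9 ± 13.9 CPM, Atg9a by 0.67 (0.0071), Wipi1 by 0.89 (0.0148) and Wipi2 by 0.42 (0.0343). Atg3, the enzyme that lipidates LC3, rose by 0.44 (0.0231), and Lamp2, a lysosomal membrane protein, by 0.48 (0.0341), though Lamp2 kept the call in 9 of 20 alternatives.

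**Figure D5:**
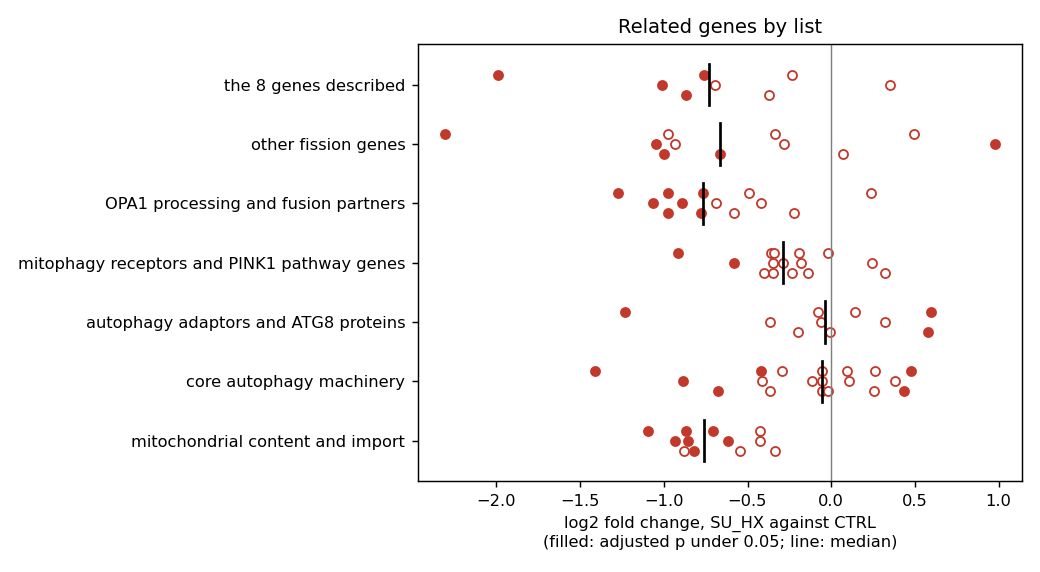
Log2 fold change in SU_HX against CTRL of each tested gene (points) by list, filled where the adjusted p was under 0.05, with a line at the median of each list; points are spread vertically for sight only. The medians of the 8 genes and of the fission, fusion-partner and mitochondrial content lists lie between -0.77 and -0.67, and those of the adaptor and core autophagy lists at -0.03 and -0.06.

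In Chrysin against SU_HX no gene of these lists passed. In Chrysin against CTRL the calls among them were Ulk1 (fell by 1.04, adjusted p = 0.0091), Fundc1 (fell by 0.72, 0.0336), Miga2 (fell by 0.50, 0.0484), Mul1 (fell by 0.62, 0.04998) and Gabarapl1 (rose by 0.57, 0.0400). Ulk1 passed under all 20 alternatives, while Mul1, Miga2, Gabarapl1 and Fundc1 lost the call in 13, 11, 9 and 8 of them. By list, the calls came to 1 of 11 tested fission genes, 1 of 13 fusion partners and 1 of 15 mitophagy genes. Among adaptors they were 1 of 10, in core autophagy 1 of 19 and in mitochondrial content 0 of 12. Of all tested genes, 8.69% were called in Chrysin against CTRL.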

How the data were processed

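Total RNA of 12 rat hearts was sequenced, per the labels, whose titles give each library's group and rat number. The authors deposited 1 table of 32623 genes with whole-number counts per gene and library, exon, intron and junction read counts, gene positions and their own fold changes (a signed score) and p-values, per the file headers. The sources used here do not give the aligner, the genome build or the use of strand. Starts in the table count from 0, and 1 was added.

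Here, edgeR 4.0.16 (R 4.3.3) fitted all 12 libraries together (TMM, filterByExpr, robust quasi-likelihood F test, two-sided, Benjamini-Hochberg over all tested genes, threshold 0.05); SE is the log2 change over the root of F, and 95% intervals use the t distribution with the fit's degrees of freedom. DESeq2 1.42.0 and limma 3.58.1 were alternatives, as were other scaling, no filter, 2 groups only, unique reads, the rat number as a block, and left-out libraries. CPM used TMM-scaled totals; log2 CPM used a prior count of 2. The edgeR fit was tested on simulated counts with the same spread in every group, so that test does not cover the unequal spread of these groups. Libraries of a group differed beyond sampling noise (smallest chi-square per degree of freedom 3.17). Nothing in the labels states separate extraction of each rat's RNA, so p-values measure the spread between libraries. Same-numbered rats of different groups did not deviate together in the same direction (0 of 12 pairs of libraries had r over 0.1, with r from -0.38 to 0.07). Pairs with different numbers were not compared, and a batch shared by rat number was not tested.

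Members and lists were chosen with earlier results of these data known. One listed member is not reported here. All others are named; per list, the 4 smallest p in SU_HX against CTRL and all calls where at most 5 passed in a direction, and 3 like genes per member.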

Additional observations from a re-analysis of the deposited data

Results flagged for a closer look

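Mff in Chrysin rat 3 was 133 CPM, while the other Chrysin rats lay between 93.0 and 96.8 CPM; the gap to the next rat was 0.905 of the group's range, above Dixon's 95% critical value for a group of 4. It was the only such value in 48 gene and group combinations tested in exon and intron reads, and chance alone gives about 1 in 20. The same rat was the highest of its group in 7 of the 8 genes and in the summed cardiomyocyte markers, and the part of these in the Mff value was not tested.

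Mfn2 had a count of 9 in SU_HX rat 1 and of 0 in the 4 CTRL libraries. None of its exon reads was unique to the gene, and SU_HX rat 1 was the library with the highest share of intron reads. In that library 9 reads at Mfn2 crossed exon junctions, the same number as its count. Whether these counts come from Mfn2 transcripts was not tested.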

How the results depend on the processing

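The number of genes called in SU_HX against CTRL was 3776 and ranged from 2486 (without SU_HX rat 3) to 4780 when 1 library was left out. For Chrysin against SU_HX it was 0 with 1 library left out (0 to 0), and DESeq2 called 2. For Chrysin against CTRL it was 1069, with 1620 by DESeq2, 2599 with only the 2 groups compared, 3564 without SU_HX rat 1 and Chrysin rat 3, and 303 to 2092 with 1 library left out; the cause was not tested. With the rat number as a replicate block it was 624; that block gave 3242 calls in SU_HX against CTRL, 0 in Chrysin against SU_HX and 2171 in intron reads, and among the 8 genes it ended only the Fundc2 intron call (adjusted p = 0.0792).

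Some changes of the 8 genes that did not pass turned sign. Bnip3l in Chrysin against SU_HX (-0.01) was 0.023 with relative-log-expression size factors, 0.040 with no filter on low counts, 0.034 by DESeq2, 0.016 with only the 2 groups, 0.0037 with the replicate block and 0.15 without both rats, and -0.089 to 0.116 with 1 library left out. Without both rats, Dnm1l was 0.0054 in SU_HX against CTRL, -0.031 in Chrysin against SU_HX and -0.026 in Chrysin against CTRL, Fis1 was -0.059 and Fundc2 -0.0078 in Chrysin against SU_HX. With 1 library left out, Dnm1l ran from -0.452 to 0.0053 in SU_HX against CTRL and from -0.014 to 0.094 in Chrysin against CTRL, and Fis1 from -0.011 to 0.18 in Chrysin against SU_HX. Of the list genes called in SU_HX against CTRL, Wipi2 and Vdac2 lost the call in 6 of 20 alternatives, Slc25a46 and Atg3 in 4, Cs in 3, Immt in 5, Phb and Tfam in 11, Lamp2 in 11, Timm44 in 13, Hspa9 in 14, Sqstm1 in 16, and Rhot2, Wipi1, Vdac3 and Hspe1 in 1, at adjusted p up to 0.130.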
